A study of Mus musculus with 8 samples.

Results

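The red cell, or erythroid, genes examined here were Alas2, Slc4a1, Epb42, Klf1, Gata1, Ahsp, Hemgn and Rhag, 8 genes listed for their known roles in red cells. A gene was measured by every array probe set annotated to it and to no other gene. This gave 10 probe sets for 7 of the 8 genes, of 45101 probe sets and 18194 genes with a probe set of their own. Slc4a1 had 3 probe sets, Epb42 had 2 and the others had 1 each. Ahsp had no probe set annotated to it alone and was not analysed here.

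The samples were hearts of mouse embryos at E18.5, 5 wild-type and 3 2lox/2lox, with 1 Affymetrix Mouse430 array for each heart. 2lox names a floxed allele of Aof2 (Kdm1a) that was not recombined, and the gene encodes the histone demethylase Lsd1. The allele carries point mutations in the tower domain of the protein, so these hearts still make a hypomorphic Lsd1, although the labels also call the group an Lsd1 knock-out. All cells of the embryo carry it, and the sources used here do not say which hearts were littermates. Values are log2 expression levels as normalized by the authors, so a difference of 1 is a 2-fold difference, and the median of an array lay between 5.03 and 5.10. Levels are compared between hearts for the same probe set and not between probe sets, whose brightness depends on their sequence.

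A fetal heart holds blood in its chambers and vessels, and before birth some circulating red cells are young and still carry RNA. Red cells make hemoglobin from globin chains and heme, and Alas2 catalyses the first step of heme synthesis in their precursors. Slc4a1 (band 3) is the anion exchanger of the red cell membrane, Epb42 ties it to the membrane skeleton and Rhag belongs to the Rh complex of the same membrane. Gata1 and Klf1 are transcription factors that switch on erythroid genes, Hemgn is a nuclear protein of blood-forming cells, and Ahsp is a chaperone of alpha globin. Embryonic globins are made by the primitive red cells of the yolk sac, and adult globins by definitive red cells of the fetal liver. Lsd1 works in complexes with Gfi1b and Tal1 in red cell precursors. In whole hearts, more red cells and more RNA per red cell cannot be told apart.

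Gata1 binds the core letters GATA and Klf1 binds CACCC-like letters, so the promoters of the members are shown first. RefSeq promoters (build GRCm38.p6, 250 bases before to 50 bases after a start) were at hand for 6 of the 8 genes. They were searched on both strands for the GATA motif, which was AGATAA or AGATAG or TGATAA or TGATAG, and for the CACCC motif, which was CCNCNCCC. Each window below has 60 bases, 5′ to 3′ on the strand of the gene, with the GATA motif in capitals, except in Gata1, where the capitals mark the CACCC motif. TTATCT and TTATCA are the GATA motif read from the other strand.
Alas2: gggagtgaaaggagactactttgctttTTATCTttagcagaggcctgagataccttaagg
Epb42: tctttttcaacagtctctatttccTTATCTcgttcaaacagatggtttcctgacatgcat
Klf1: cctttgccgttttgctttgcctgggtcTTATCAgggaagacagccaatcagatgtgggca
Hemgn: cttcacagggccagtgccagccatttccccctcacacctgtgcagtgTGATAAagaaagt
Rhag: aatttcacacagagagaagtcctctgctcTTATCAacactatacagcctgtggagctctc
Gata1: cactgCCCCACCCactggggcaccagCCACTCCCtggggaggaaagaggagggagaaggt

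The windows lie at chrX:150547304-150547363 on the plus strand for Alas2, chr2:121037068-121037127 on the minus strand for Epb42, chr8:84901875-84901934 on the plus strand for Klf1, chr4:46404184-46404243 on the minus strand for Hemgn, chr17:40811089-40811148 on the plus strand for Rhag and chrX:7967911-7967970 on the minus strand for Gata1. The GATA motif was found in 5 of the 6 promoters, against 29.8% of 32851 RefSeq promoters of the same length. It began 86 bases before the start in Alas2, 226 in Epb42, 80 in Klf1, 13 in Hemgn and 31 in Rhag, and Hemgn held another that began at base 29 of the transcript. The CACCC motif was found in 3 of the 6, Alas2, Gata1 and Hemgn, against 49.5% of all. In Hemgn its 4 overlapping matches were a run of G. A match describes letters and is not a bound site.

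The level of the red cell genes differed between hearts, and wild-type heart 4 stood apart. Of 77 measured genes of the 7 red cell lists described below, members included, 12 were more than 0.5 above every other heart in wild-type heart 4, against 27 of all 18194 genes (0.148%). Wild-type heart 2 was more than 0.5 below every other heart in 5 of the 77, against 8 of all genes (0.044%). Wild-type heart 4 was also more than 0.5 below every other heart in 39 genes (0.214%), none of them among the 77. Of its 27 high genes, 15 were outside the red cell lists. Of these, Tent5c and Tmcc2 varied with the erythroid score described below (r = 0.97 and 0.92). Standing apart was not particular to this heart, since each of the others stood above in 0 to 26 genes and below in 1 to 19. In the 6 hearts other than wild-type hearts 2 and 4 none of the 77 genes stood apart by this much in either direction. The array of wild-type heart 4 had a median of 5.10. A measure of RNA integrity, the signal of Actb and Gapdh at the 3′ end less that at the 5′ end, was 0.32 for it and 0.33 to 0.38 for the 4 further wild-type arrays. For 2lox/2lox hearts 1, 2 and 3 this measure was 0.52, 0.50 and 0.33. Results that rest on wild-type heart 4 are given with and without it. Genotype and tissue were checked by marker genes. Kdm1a read 10.26 to 10.36 in wild-type hearts and only 9.44 to 9.55 in those of the 2lox/2lox embryos (log2 difference -0.81 ± 0.06 (SE), limma adjusted p = 0.000515), and the sarcomere genes Actc1 and Tnnt2 read 14.35 to 14.47 and 13.83 to 14.04 over the 8 hearts.

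Alas2 varied most when each member was represented by its brightest probe set. It read 7.36, 5.93, 8.02, 9.63 and 8.56 in wild-type hearts 1 to 5 and 7.11, 7.97 and 9.09 in 2lox/2lox hearts 1 to 3. Wild-type heart 4 was highest, wild-type heart 2 was lowest, and all 3 2lox/2lox hearts lay inside the wild-type range. From the lowest to the highest heart this was a 13.0-fold range. The mean was 7.90 ± 1.38 (SD, n = 5) in the wild-type hearts and 8.06 ± 0.99 (SD, n = 3) in the 2lox/2lox hearts. Its SD among the wild-type hearts exceeded that of 99.96% of all probe sets, whose median SD was 0.10.

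Slc4a1 followed the same order at the extremes. Its brightest probe set read 7.04, 6.03, 7.51, 9.15 and 7.70 in wild-type hearts 1 to 5 and 6.95, 7.73 and 8.18 in 2lox/2lox hearts 1 to 3, an 8.65-fold range. Here too wild-type heart 4 was highest and wild-type heart 2 lowest, and the groups overlapped. A further probe set of Slc4a1 ran from 5.01 in wild-type heart 2 to 9.11 in wild-type heart 4, a 17.1-fold range that was wider than that of Alas2, and correlated with the brightest at r = 0.99 over the 8 hearts (exact permutation p = 5e-05, 0.99 without wild-type heart 4). The remaining one was nearly flat, from 5.06 to 5.44, so the probe sets of this gene did not show the same size of range.

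The other membrane genes were dimmer and varied less. Epb42 read 4.87, 5.17, 5.14, 5.85 and 5.24 in wild-type hearts 1 to 5 and 5.04, 4.995 and 5.50 in 2lox/2lox hearts 1 to 3. Wild-type heart 4 was highest and 2lox/2lox heart 3 next, as for Alas2, but the lowest was wild-type heart 1. The dimmer probe set of Epb42 ran from 3.64 to 4.32 and correlated with the brighter at r = 0.95 (exact permutation p = 0.000446, 0.91 without wild-type heart 4). Rhag read 3.72, 3.44, 3.51, 4.02 and 3.70 in wild-type hearts 1 to 5 and 3.78, 3.61 and 3.72 in 2lox/2lox hearts 1 to 3. All 8 values of Rhag lay below the lower quartile of all values on the arrays, 4.21, so its signal cannot be told from background, although wild-type heart 4 was again the highest.

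Of the nuclear factors, Klf1 read 5.05, 5.24, 5.26, 6.01 and 5.34 in wild-type hearts 1 to 5 and 5.23, 5.08 and 5.31 in 2lox/2lox hearts 1 to 3. Only wild-type heart 4 departed from the rest, which spanned 0.29. Gata1 read 4.57, 4.93, 4.99, 5.31 and 5.02 in wild-type hearts 1 to 5 and 4.93, 4.96 and 4.93 in 2lox/2lox hearts 1 to 3. Wild-type hearts 1 and 4 were its extremes, and the 2lox/2lox hearts lay close together, with an SD of 0.02. Hemgn read 3.82, 3.77, 3.92, 4.21 and 3.98 in wild-type hearts 1 to 5 and 3.77, 3.79 and 4.17 in 2lox/2lox hearts 1 to 3. These values too were below the lower quartile of the arrays in all 8 hearts, yet wild-type heart 4 and 2lox/2lox heart 3 were the highest, as they were for Alas2.

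**Figure D1:**
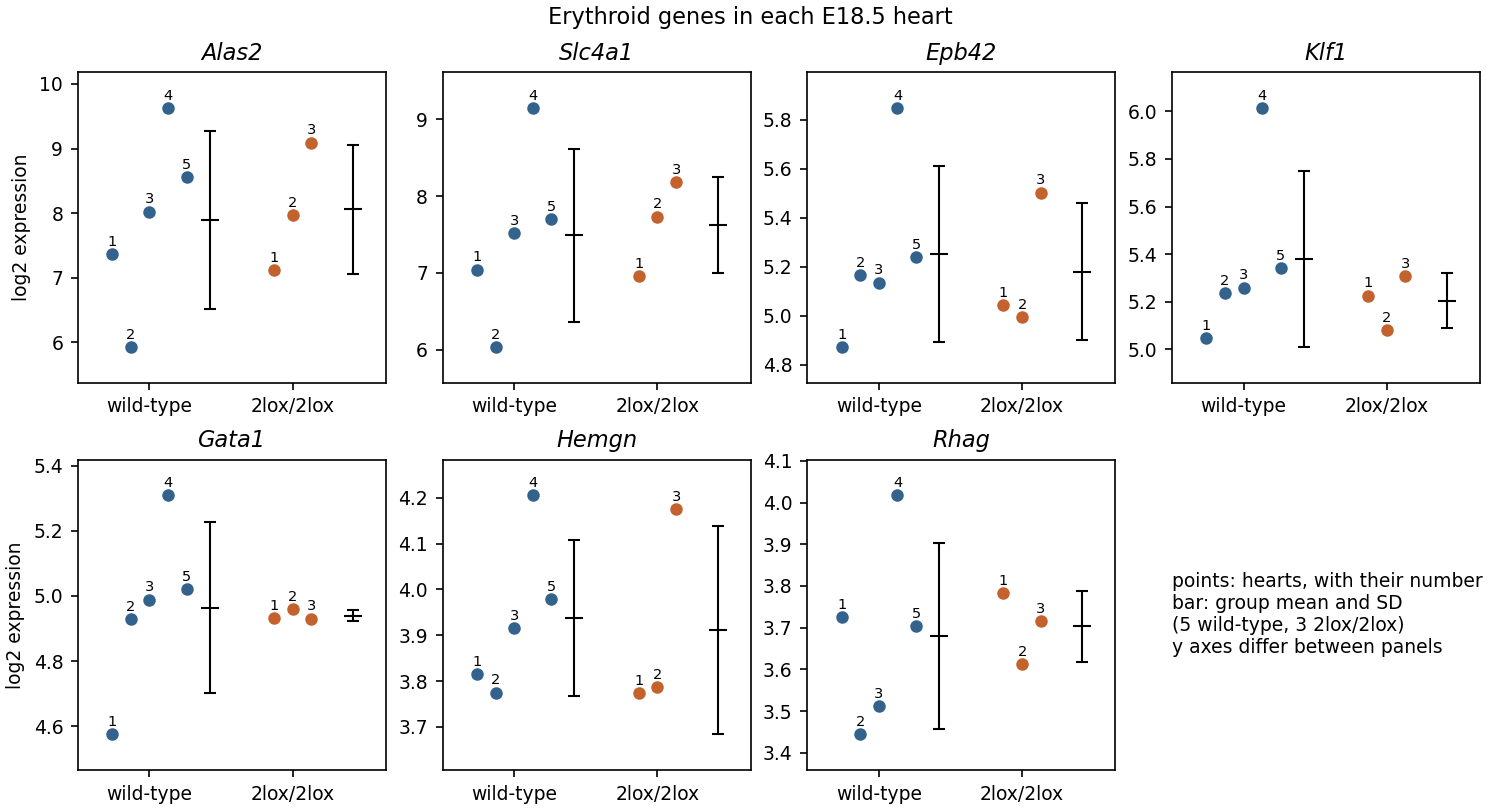
Log2 expression (y axis, a different scale in each panel) of the 7 measured erythroid genes by genotype (x axis), with 1 numbered point for each heart and a bar for the group mean and SD. Wild-type heart 4 is highest in all 7 panels, and the 2lox/2lox hearts lie among the wild-type hearts except for the lowest value of Hemgn.

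An erythroid score, in which each of the 7 genes was centred on its wild-type mean and the genes were then averaged, put the hearts in order. The genes were not scaled, so Alas2 and Slc4a1 weighed most. Their SDs over the 8 hearts were 1.17 and 0.92, against 0.18 to 0.31 for the other genes. Their r with the score was 0.96 and 0.98. The score was -0.31, -0.58, -0.04, 0.79 and 0.13 in wild-type hearts 1 to 5, and -0.25, -0.07 and 0.33 in 2lox/2lox hearts 1 to 3. Wild-type heart 2 was thus lowest, followed by wild-type heart 1 and 2lox/2lox heart 1, and 2lox/2lox heart 3 came next below the highest, wild-type heart 4. The genotypes were mixed in this order, and each heart had 1 array, so neighbours in it have no error of their own. The score ran over 1.38 log2 units, and over 0.91 without wild-type heart 4. Its SD was 0.52 over the 5 wild-type hearts and 0.30 over the 3 of 2lox/2lox embryos.

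The first comparison asked whether red cell transcripts differed between genotypes. None of the 10 member probe sets passed the limma test after Benjamini-Hochberg adjustment over all 45101 probe sets, in which 36 passed (0.0798%). The smallest adjusted p of a member was 0.799 (Klf1), none had an unadjusted p under 0.05, and none was called with an intensity trend or with robust moderation. No member had its 2lox/2lox hearts all outside the wild-type range, as 6.11% of all probe sets did. The log2 difference, 2lox/2lox minus wild-type, was 0.16 for Alas2 (95% interval -1.42 to 1.74), 0.13 for Slc4a1 (-1.11 to 1.38), -0.07 for Epb42 (-0.50 to 0.36), -0.18 for Klf1 (-0.58 to 0.23), -0.02 for Gata1 (-0.31 to 0.26), -0.03 for Hemgn (-0.29 to 0.24) and 0.02 for Rhag (-0.24 to 0.28). The median over the 7 genes was -0.02, and it was 0.00 over all genes. Without wild-type heart 4 it was 0.59 for Alas2 and 0.55 for Slc4a1 and turned to 0.08 for Epb42, 0.06 for Gata1 and 0.04 for Hemgn. Without 2lox/2lox heart 3 it turned to -0.36 for Alas2 and -0.15 for Slc4a1, and without wild-type heart 2 to -0.33 and -0.23. The intervals of the brightest genes were wide. For Alas2 the interval reached from 0.37-fold to 3.35-fold, so differences within these bounds were not excluded by these arrays. The intervals of the dim genes were narrower, but a fold that starts near background can be understated.

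**Figure D2:**
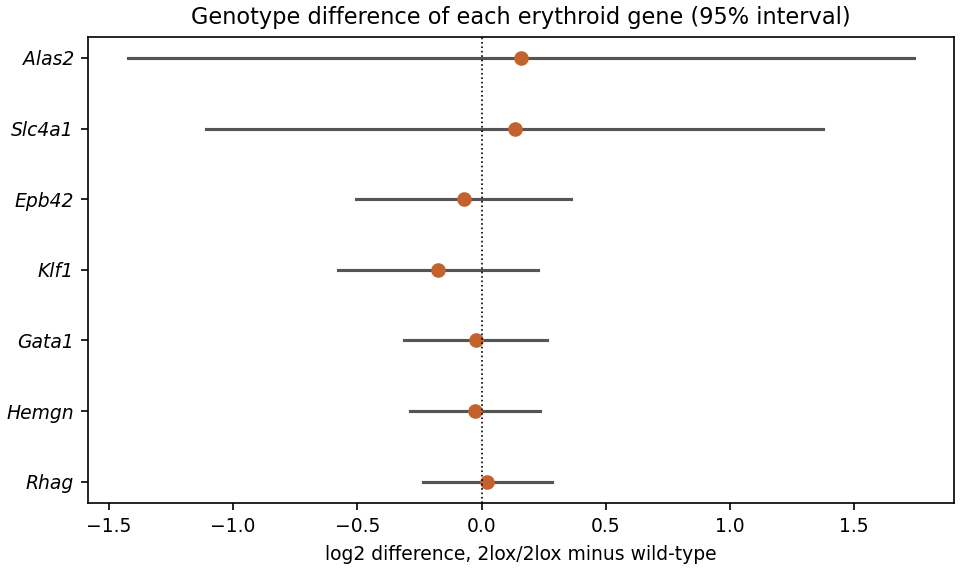
Log2 difference, 2lox/2lox minus wild-type (x axis), of the brightest probe set of each erythroid gene (y axis), as a point with its 95% interval from limma over 5 wild-type and 3 2lox/2lox hearts. All 7 intervals contain 0, and those of Alas2 and Slc4a1 are the widest.

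The second comparison asked whether the red cell genes varied together from heart to heart. Pearson's r was positive for all 21 pairs of the 7 genes, from 0.41 to 0.97 with a median of 0.71. By exact permutation tests over the orders of the 8 hearts, two-sided and adjusted over the 21 pairs, 6 pairs passed. By Spearman's rho 3 of these 6 passed, Alas2 with Slc4a1, Alas2 with Hemgn and Epb42 with Klf1. The genes were chosen as red cell genes with earlier results of these data known, so the correlations describe the 8 hearts.

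Alas2 and Slc4a1, the heme enzyme and the anion exchanger, were the closest pair. Their r was 0.97 (exact permutation p = 0.000223, adjusted p = 0.00469) and their rho 0.93 (exact permutation p = 0.00223, adjusted p = 0.0156). Without the 2 hearts farthest from the median of Alas2 it was 0.96, and without wild-type heart 4 it was 0.98 (adjusted exact permutation p = 0.0208). Of all genes, 0.0165% had as high an r with Alas2.

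Epb42 and Klf1, a membrane protein and a transcription factor, had an r of 0.92 (exact permutation p = 0.000769, adjusted p = 0.00807) and a rho of 0.95 (exact permutation p = 0.00114, adjusted p = 0.0120). Without the 2 hearts farthest from the median of Epb42 the r was 0.94, and 0.0879% of all genes had as high an r with Epb42. Without wild-type heart 4 it was 0.82, which did not pass (adjusted exact permutation p = 0.120). The remaining 4 pairs all held Hemgn. Its r was 0.88 with Alas2 (exact permutation p = 0.00131, adjusted p = 0.00920), 0.84 with Slc4a1 (exact permutation p = 0.00203, adjusted p = 0.0107), 0.91 with Epb42 (exact permutation p = 0.00258, adjusted p = 0.0108) and 0.76 with Klf1 (exact permutation p = 0.00585, adjusted p = 0.0205). Its rho was 0.95 with Alas2 (exact permutation p = 0.00114, adjusted p = 0.0120), 0.83 with Slc4a1 (exact permutation p = 0.0154, adjusted p = 0.0807), 0.71 with Epb42 (exact permutation p = 0.0576, adjusted p = 0.151) and 0.76 with Klf1 (exact permutation p = 0.0368, adjusted p = 0.129). Without the 2 hearts farthest from the median of the other gene, the r was 0.91 with Alas2, 0.80 with Slc4a1, 0.58 with Epb42 and 0.65 with Klf1. The share of all genes with as high an r was 0.137% for Alas2, 0.313% for Slc4a1, 0.154% for Epb42 and 2.27% for Klf1.

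Much of the covariation of the dimmer genes rested on wild-type heart 4. Without it, the pair of Alas2 and Slc4a1 was the only one of the 21 to pass, 5 pairs had an unadjusted p under 0.05, and 18 had a positive r, with a median of 0.44. Without wild-type heart 2 there were 10 pairs that passed, and without 2lox/2lox heart 3 there were 2. Measured as deviations from the genotype means and permuted within genotype, 4 pairs passed. The mean of the other members was not scaled either, so Alas2 and Slc4a1 weighed most in it. With that mean, r was 0.90 for Alas2, 0.96 for Slc4a1, 0.82 for Epb42, 0.77 for Klf1, 0.67 for Gata1, 0.90 for Hemgn and 0.72 for Rhag. Without wild-type heart 4 it was 0.95 for Alas2, 0.92 for Slc4a1 and 0.84 for Hemgn, but 0.57 for Epb42, 0.41 for Klf1, 0.30 for Gata1 and 0.37 for Rhag.

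**Figure D3:**
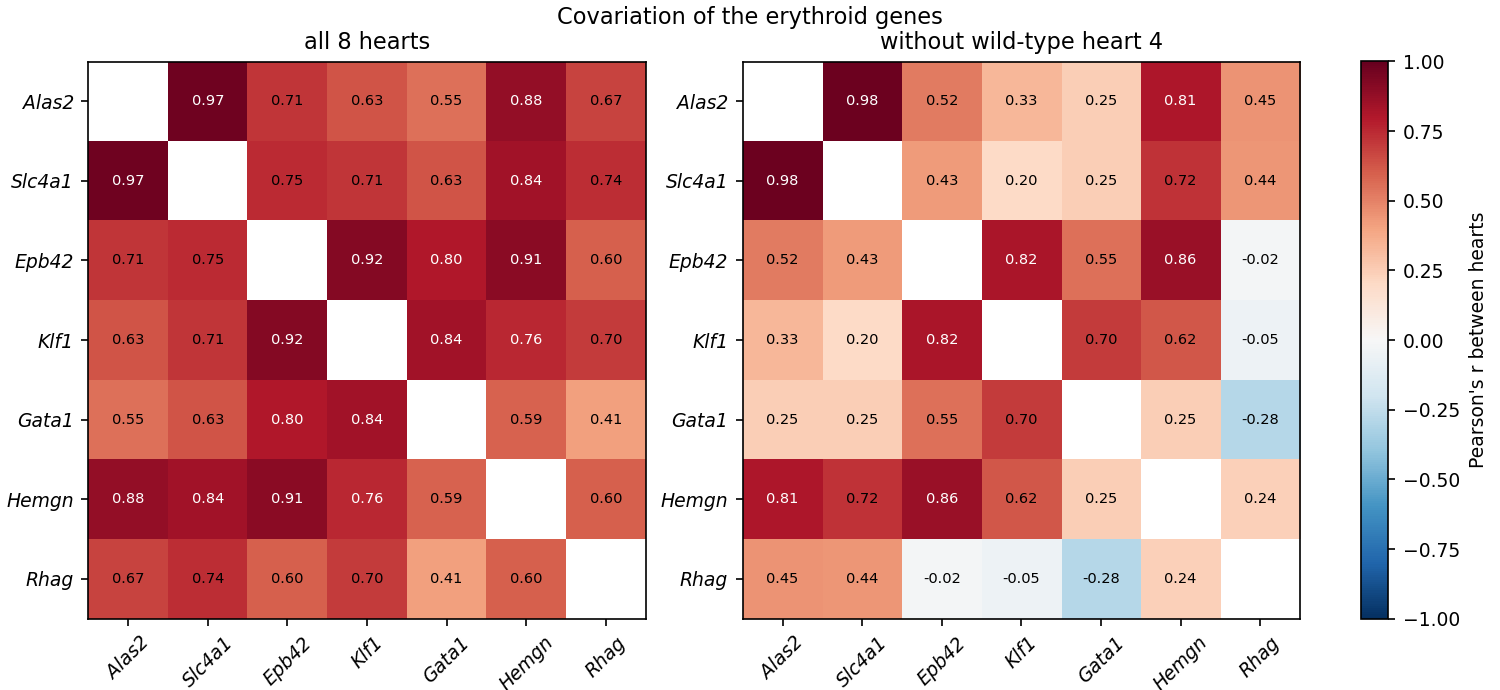
Pearson's r between hearts for each pair of the 7 erythroid genes (both axes), as colour and number, over all 8 hearts on the left and without wild-type heart 4 on the right. The value for Alas2 with Slc4a1 is 0.97 and 0.98, while Klf1 and Gata1 fall from 0.63 and 0.55 to 0.33 and 0.25 with Alas2.

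The other genes of red cells were followed in 6 further lists, and only a part of each list varied with the members. Of the 70 measured genes of these lists, 19 (27.1%) had an r of at least 0.8 with the erythroid score, against 0.748% of the 18187 genes other than the members. Without wild-type heart 4 there were 10 (14.3%), against 1.46%, and 9 genes were among both. By list, an r of at least 0.8 was found for 4 of 6 globin genes, 2 of 7 genes of heme synthesis, 2 of 9 of iron transport, 2 of 17 of the membrane, 1 of 13 factors and 8 of 18 late red cell enzymes. Without wild-type heart 4 these counts were 1, 2, 1, 0, 0 and 6. Among the 14 genes of the cardiomyocyte list described below, 0 had such an r over the 8 hearts and 2 without wild-type heart 4. A correlation with the score describes these 8 hearts, and the genes of a heart share its array and normalization.

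Among the heme and iron genes, Fech, which inserts iron into the porphyrin ring, had an r of 0.97 with the score (0.97 without wild-type heart 4). It read 9.83, 9.54, 10.03, 10.54 and 10.22 in wild-type hearts 1 to 5 and 9.71, 9.93 and 10.31 in 2lox/2lox hearts 1 to 3. Slc25a37 (mitoferrin), which carries iron into mitochondria, read 7.56, 6.48, 8.18, 8.71 and 8.62 in wild-type hearts 1 to 5 and 7.58, 8.18 and 9.07 in 2lox/2lox hearts 1 to 3, so its highest heart was 2lox/2lox heart 3. Its r was 0.86, and 0.99 without wild-type heart 4. Alas1, the form of the enzyme used outside red cells, was lowest in wild-type heart 4 at 8.98, between 9.07 and 9.46 in the others, and had an r of -0.06 (0.82 without wild-type heart 4).

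Among the 734 genes with a mean of at least 6 and an SD of at least 0.25 over the hearts, the 12 most like the erythroid score were Bpgm, Car2, Fech, Tent5c, Blvrb, Gpx1, Tmcc2, Gclm, Trim10, Fth1, Hba-x and Mkrn1. Their r ran from 0.88 to 0.99, and from 0.77 to 0.97 without wild-type heart 4. Of the 12, 10 were in the red cell lists, and Tent5c and Tmcc2 were not. Bpgm, which makes the phosphate that lowers the oxygen affinity of hemoglobin, read 7.94, 7.49, 8.13, 9.25 and 8.23 in wild-type hearts 1 to 5 and 7.87, 8.06 and 8.69 in 2lox/2lox hearts 1 to 3. Tent5c, a poly(A) polymerase, had the widest range of the 12, from 5.64 in wild-type heart 2 to 9.94 in wild-type heart 4. None of the 12 was called between genotypes, and the largest log2 difference was 0.52, that of Hba-x (limma adjusted p = 0.852).

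The embryonic globins were highest in wild-type heart 4 and lowest in wild-type heart 2. Hbb-bh1, a beta-like globin of primitive red cells, read 8.66, 7.12, 8.50, 12.29 and 7.57 in wild-type hearts 1 to 5 and 8.71, 8.83 and 9.80 in 2lox/2lox hearts 1 to 3. Wild-type heart 4 lay 2.49 above the next heart, a 5.61-fold gap, and its 3 probe sets read 12.07 to 12.61 there and 7.10 to 9.80 elsewhere. Hba-x, the embryonic alpha-like globin, read 11.47, 9.76, 11.57, 13.79 and 11.15 in wild-type hearts 1 to 5 and 11.71, 11.87 and 12.61 in 2lox/2lox hearts 1 to 3. Here wild-type heart 4 lay 1.17 above the next heart, and wild-type heart 2 lay 1.39 below the next. Wild-type heart 5, which had the highest Alas2 after wild-type heart 4 and 2lox/2lox heart 3, was second lowest in both embryonic globins. Hbb-y, another embryonic beta-like globin, ran from 13.71 to 14.39 in its brightest probe set, with the same lowest and highest hearts and a gap of 0.22 at either end. A further probe set of Hbb-y ran from 12.54 in wild-type heart 2 to 14.32 in wild-type heart 4, a 3.44-fold range. The remaining one ran from 13.69 to 14.39 between the same hearts. The log2 difference between genotypes was 0.29 for Hbb-bh1 (limma adjusted p = 0.956), 0.52 for Hba-x (limma adjusted p = 0.852) and 0.07 for Hbb-y (limma adjusted p = 0.908).

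The adult globins were read by probe sets shared between gene copies, so no single copy can be named. The shared alpha probe sets read 13.81 to 14.55, 13.59 to 14.29 and 9.99 to 12.69, and the shared beta probe set 12.89 to 14.02. Each was lowest in wild-type heart 2, and their r with the erythroid score was 0.82 to 0.92. The bright ones had the narrower ranges. Probe sets annotated to Hba-a1 or Hba-a2 alone read 4.36 to 4.55 and 4.11 to 4.81, near the lower quartile, and the brightest annotated to Hbb-b2 alone ran from 4.95 to 6.15 (log2 difference between genotypes 0.00, -0.21 and -0.22, with limma adjusted p of 0.998, 0.568 and 0.857).

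Some membrane and regulator genes stood apart in wild-type heart 4 alone. Kel, a blood group glycoprotein, read 6.49 there and 4.73 to 4.85 in the other 7 hearts, and Ermap, another red cell membrane protein, read 5.96 there and 4.85 to 5.06 elsewhere. Tal1, a transcription factor of early blood and red cell precursors, read 8.08 there and 6.70 to 7.17 elsewhere. Nfe2, a factor that acts on globin genes, read 5.82 there and 4.39 to 5.01 elsewhere, and Gfi1b, a repressor partner of Lsd1, read 5.79 there and 5.03 to 5.33 elsewhere, a gap of 0.45 that lies under the 0.5 used above. These 5 were chosen after their values were seen. In 2lox/2lox heart 3, the second highest in Alas2, Kel was 4.77 and Tal1 6.81, inside the range of the other hearts. Epor, the erythropoietin receptor, ranged from 6.41 to 6.71 over all hearts.

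**Figure D4:**
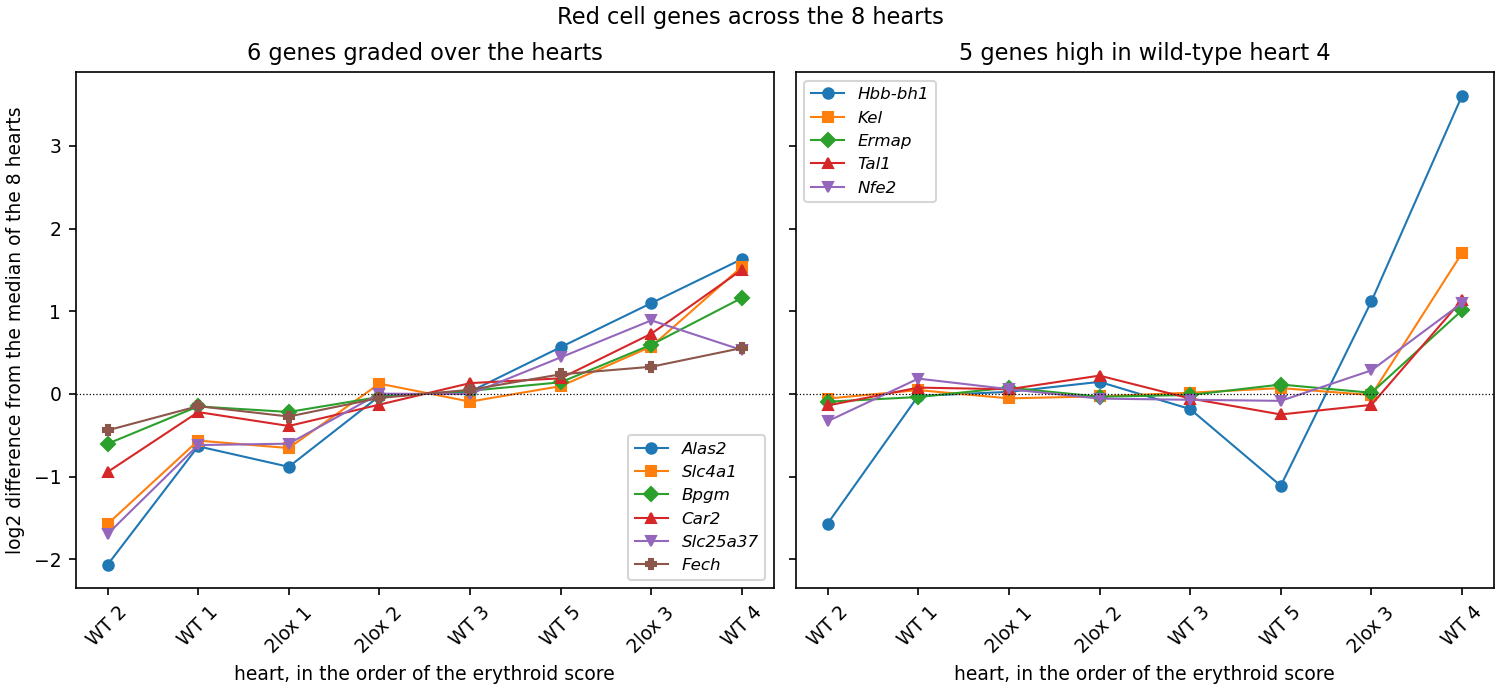
Log2 difference from the median of the 8 hearts (y axis) of 6 genes that were graded over the hearts on the left and 5 that stood apart in wild-type heart 4 on the right, with hearts (WT, wild-type; 2lox, 2lox/2lox) in the order of the erythroid score (x axis) and 1 line for each gene. Genes were picked after their values were seen. On the right, Kel, Ermap and Tal1 each lie within 0.5 of each other over 7 hearts and higher in wild-type heart 4. The left panel climbs from wild-type heart 2, but the order was set by the score, in which its Alas2 and Slc4a1 weigh most.

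Other blood cells did not follow the red cell order. The platelet and megakaryocyte list of 14 genes was highest in a heart of each genotype, wild-type heart 4 (0.30) and 2lox/2lox heart 2 (0.32), against -0.19 to 0.08 in the others. The neutrophil list was highest in 2lox/2lox hearts 3 (0.23) and 1 (0.20), and the lymphocyte list stayed between -0.08 and 0.07. The macrophage list of 15 genes had means of 0.21 to 0.27 for the 2lox/2lox genotype, above all those of the wild-type genotype (-0.13 to 0.14). Single probe sets had their 2lox/2lox hearts all outside the wild-type range in 6.11% of all cases, and no such share was computed for list means. Of the 15 genes 7 had an unadjusted limma p under 0.05, against 10.2% of all genes, and none passed the limma test. The progenitor list ran from -0.03 to 0.12, with wild-type heart 4 at -0.01. The r of its genes with the erythroid score ran from -0.86 (Cd34, -0.71 without wild-type heart 4) to 0.46. The median of these r was 0.10. Of the genes of these 5 lists, only Hmox1 (heme oxygenase, which breaks down heme) had an r of at least 0.8 with the erythroid score, 0.88 over the 8 hearts and 0.70 without wild-type heart 4.

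Neighbouring tissues were looked for in the same way. The hepatocyte list, whose cells share the fetal liver with red cell precursors, ran from -0.11 to 0.09 over the hearts with wild-type heart 4 at 0.00. Its defining genes Alb and Afp read 4.30 to 4.90 and 4.42 to 4.82, near the lower quartile of the arrays, in all 8 hearts. The lung list ran from -0.10 to 0.06, with Nkx2-1 at 4.36 to 4.57. The cardiomyocyte list was lowest in wild-type heart 4 (-0.13, against -0.06 to 0.09), and so was the endothelial list (-0.11, against -0.03 to 0.14). Myoglobin (Mb) was lowest in wild-type heart 4 at 11.23, then in wild-type heart 2 at 11.58, and read 12.24 to 12.91 in the others. Its r with the erythroid score was -0.16, and 0.80 without wild-type heart 4, and it was chosen after its values were seen. Over the cardiomyocyte list r ran from -0.81 (Actc1, -0.66 without wild-type heart 4) to 0.68 (Tbx5, 0.15 without it). The median r of that list was -0.10, and 0.27 without wild-type heart 4. For the endothelial list the median was -0.47, and -0.37 without that heart. The part of these tissues in the red cell values was not tested.

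**Figure D5:**
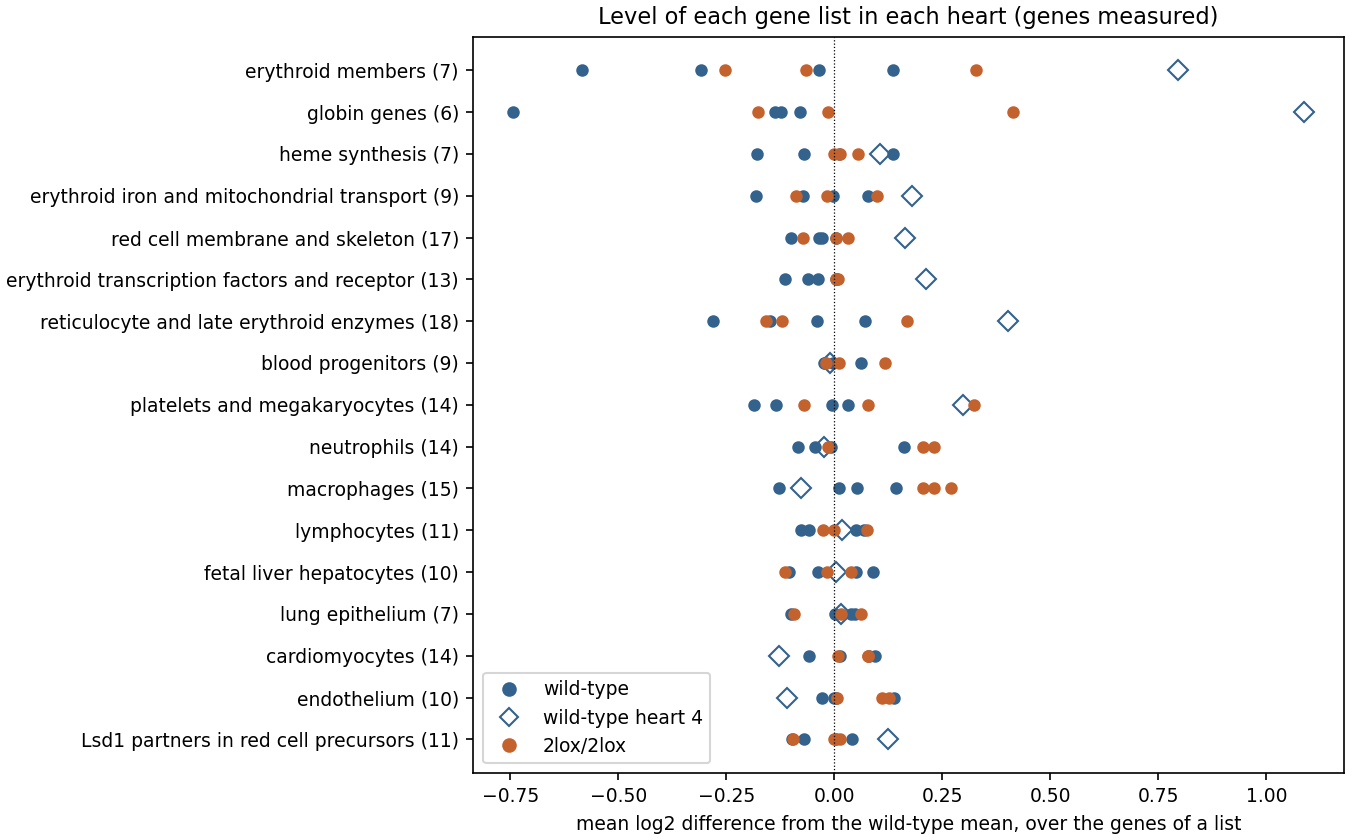
Mean over the genes of each list of the log2 value less its wild-type mean (x axis), for the erythroid members and 16 further lists with the number of genes measured (y axis), with 1 point for each heart and an open diamond for wild-type heart 4. Wild-type heart 4 is highest in 5 of the 6 further red cell lists, the exception being heme synthesis, and the 2lox/2lox hearts lie above the wild-type hearts in the macrophage list.

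Between genotypes, 1 of the 182 measured genes of the 16 further lists passed the limma test, and that was Kdm1a itself, which the list of Lsd1 partners contains. No gene of the 6 red cell lists passed by its brightest probe set, the only one counted, with 0 higher and 0 lower. By that probe set 4 of the 70 had an unadjusted p under 0.05, against 10.2% of all genes. Their medians ran from -0.05 to 0.03 on the log2 scale, against 0.00 for all genes. The 4 were Cpox and Slc11a2, in heme synthesis and iron transport, and Ldb1 and Foxo3 among the factors. Cpox, an enzyme late in heme synthesis, read 6.32, 6.37, 6.48, 6.31 and 6.81 in wild-type hearts 1 to 5 and 7.18, 7.20 and 6.47 in 2lox/2lox hearts 1 to 3 (log2 difference 0.49, limma adjusted p = 0.343). It was called only when 2lox/2lox heart 3 was left out (0.73, limma adjusted p = 0.0298), and the 2 hearts in which it was high were those with the larger RNA integrity difference. Ldb1, which joins Tal1 and Gata1 in 1 complex, differed by 0.22 (limma adjusted p = 0.327). Some dimmer probe sets, not counted here, had groups that did not overlap, as 6.11% of all probe sets did. A dimmer probe set of Tfrc had a mean of 6.78 in wild-type and 6.30 in 2lox/2lox hearts. For Slc2a1 a dimmer one had means of 9.65 and 10.22. Of the 11 partners of Lsd1 in red cell precursors, Kdm1a included, 4 had an unadjusted p under 0.05. Among them Hmg20b differed by 0.23 (limma adjusted p = 0.357) and Dnmt1 by 0.21 (limma adjusted p = 0.357), while Tal1 and Gfi1b were not among the 4.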

How the data were processed

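RNA of freshly dissected E18.5 hearts (5 wild-type, 3 2lox/2lox, grouped by their labels) was hybridized to Affymetrix Mouse430 arrays. The authors deposited log2 values of 45101 probe sets that were already normalized between arrays. The sources used here do not give how the probes were summarized and normalized, and low values depend most on it. The submitters' processing notes name limma with no version, and the paper's methods state limma's moderated statistic, Benjamini-Hochberg correction at 0.05 and a fold of 1.4. No perfusion of the hearts is described. Precision is limited by how many arrays there are.

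Probe sets were named by the platform annotation with RefSeq symbols. It gave 1 gene for 34958 probe sets, several for 932 and none for 9211. Where a gene had several probe sets, the one with the highest mean over the 8 hearts stood for it. The difference 2lox/2lox minus wild-type was fitted over all 8 hearts with lmFit and eBayes of limma 3.58.1 (R 4.3.3), two-sided, and adjusted over all probe sets. Pairs of genes were tested by exact permutation of the hearts in Python 3.11.15. The scripts were tested on simulated data. The members, the 17 gene lists and the tests were chosen with earlier results of these data known, so no list was tested as a set and no list-wide p is given. Genes named are all members, the measured globin genes, Kdm1a, up to 3 genes of each other list by smallest p, and the 12 genes most like the erythroid score. Actc1, Tnnt2, Alb, Afp and Nkx2-1 stand as defining genes of a cell type, and Slc25a37, Alas1, Epor, Mb, Hmox1, Kel, Ermap, Tal1, Nfe2 and Gfi1b were chosen after their values were seen. Alternatives were a trend or robust moderation, filters on dim probe sets (3 or more hearts at 5 or above, or above the median in mean level), quantile normalization, median centring, array weights, a replicate block, the RNA integrity difference or the erythroid score as a covariate, averaging a gene's probe sets, rank correlation, deviations from genotype means, and each heart left out in turn.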

Additional observations from a re-analysis of the deposited data

Results flagged for a closer look

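Among the 5 wild-type hearts, 85 probe sets of the members and named genes, some named after their values were seen, were examined for 1 heart far from the rest, where chance alone flags about 1 in 20. A probe set was picked out when the gap to the nearest heart took more than 0.71 of the range. This held for 8 of them and for no member, and in 5 of the 8 the heart was wild-type heart 4. Of these 5, Kel, Ermap and Tal1 had been chosen after they were seen to stand apart in that heart. The count can therefore not be set against chance. Kel read 6.49 in wild-type heart 4, against 4.73 to 4.85 in the other wild-type hearts, Ermap 5.96 against 4.85 to 5.06, and Tal1 8.08 against 6.70 to 7.02. Nkx2-1, a lung gene near background, read 4.36 there against 4.51 to 4.57. Ube2o, a ubiquitin enzyme of maturing red cells, read 6.98 there against 6.26 to 6.43. Hba-a2 read 4.81 in wild-type heart 5, against 4.30 to 4.39. The neutrophil gene S100a9 read 5.64 in wild-type heart 3, against 4.83 to 5.05. Nppa, which encodes atrial natriuretic peptide, read 13.56 in wild-type heart 5, against 13.76 to 13.82.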

How the results depend on the processing

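No member probe set was called under any of the 17 alternatives tried for it, in 2 of which the filters left 6 of the 10 to be tested. Over 98 fits of single members under alternatives the smallest limma adjusted p was 0.566, and the sign of these uncalled differences changed in 19. The median difference of the 7 genes stayed between -0.16 and 0.21 (main value -0.02), with the upper end with the RNA integrity difference as a covariate, where Alas2 was 1.16 higher in 2lox/2lox hearts. Over all probe sets 36 were called, 9 with that covariate, and 17 to 797 with 1 heart left out, the highest without 2lox/2lox heart 3. With the erythroid score as a covariate 32 were called, 30 of them among the 36. Same-numbered hearts had deviations from their genotype means that correlated at 0.01, -0.08 and -0.05. These values were not compared with those of differently numbered hearts, so they cannot tell whether the replicate numbers pair littermates. A replicate block over the 6 hearts with shared numbers called 0 probe sets over all and 0 of the named genes. The main fit, which called 1 named gene (Kdm1a), held all 8 hearts. The effect of the block and that of losing wild-type hearts 4 and 5 cannot be told apart. Leaving out 1 heart called 1 to 4 of the named genes, with 4 (Kdm1a, Cpox, Mrc1 and Gata4) without 2lox/2lox heart 3. Of the 21 pairs, 6 passed, 3 by Spearman's rho and 1 to 10 with 1 heart left out. Without Hemgn and Rhag, the 2 dimmest genes, 2 of 10 pairs passed, an alternative chosen after seeing the data. The score ranged over 1.38, and over 0.91 to 1.38 with 1 heart left out. Also chosen after seeing the data, red cell list genes with an r of at least 0.8 numbered 19 over all hearts and 10 without wild-type heart 4, and those in which that heart stood apart numbered 12 at a gap of 0.5, 20 at 0.25 and 3 at 1. The causes of these shifts were not tested. Under quantile normalization and median centring the same 6 pairs passed, no member was called and Kdm1a was the only named gene called. Hemgn and Rhag lay near background, and the number of hearts limits the rest.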
